A study of Mus musculus with 5 samples.

Results

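Complement genes expressed by glia and microglia of the adult mouse retina were followed across the cell types of a single-cell RNA sequencing (scRNA-seq) series. The 9 members, *C1qa*, *C1qb*, *C1qc*, *C3*, *C4b*, *Cfi*, *Cfb*, *Serping1* and *C3ar1*, were taken by symbol from the 33696 genes listed in every library. The series profiled tdTomato+ cells isolated by fluorescence-activated cell sorting (FACS) from retinas that received either the *mKate2* AAV, which encodes a red fluorescent protein and served as the control, or the *Yap5SA* AAV, which encodes a YAP variant resistant to Hippo signaling. All mice were Glast-CreERT2; Rosa26-Ai65 on the C57BL/6J background, 12 to 20 weeks old, with both sexes pooled, and all received tamoxifen. Both AAVs used the ShH10 capsid and the GFAP promoter and carried FlpO, and tdTomato required recombination by both Cre, driven by the *Glast* promoter, and FlpO. Cells were sorted at day 56, from 16 pooled retinas for the *mKate2* AAV and 21 for the *Yap5SA* AAV. Nothing in the labels ties the libraries of a group to separate animals, so p-values between AAVs measure the spread between these libraries, which may be technical.

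The sorted cells were labelled as Müller glia (MG), the radial glia of the retina, yet other cells were captured as well. Cells with at least 1000 unique molecular identifiers (UMIs) and at most 15% mitochondrial UMIs were classed as MG when *Glul*, *Rlbp1*, *Slc1a3*, *Clu* and *Aqp4* together made up at least 0.5% of their UMIs, and as myeloid when *Ctss*, *Tyrobp* and *Fcer1g* made up at least 0.15%. Of the 5 libraries, *Yap5SA* AAV replicate 2 was left out because it shared 1361 cell barcodes, 99.8% of its own, with replicate 1, whereas other pairs shared 7 at most. The 4 remaining captures held 1496 and 2861 MG with the *mKate2* AAV (replicates 1 and 2) and 801 and 1341 with the *Yap5SA* AAV (replicates 1 and 3). In the same order they held 26, 929, 143 and 62 myeloid cells. Cells of neither gate were split into rods (3, 353, 0 and 376) and other cells (149, 1457, 180 and 531). All 10 MG markers had UMIs in the MG of every capture. The 8 of them other than *Apoe* and *Vim* summed to 9628 to 14925 UMIs per 1000000 UMIs of the class (CPM) in MG, against 196 to 400 CPM in myeloid cells. With *Apoe* and *Vim*, the 10 markers summed to 21051 to 24198 CPM in MG and to 21955 to 34489 CPM in myeloid cells. That sum was higher in the myeloid cells of each capture. *Glul*, *Rlbp1* and *Slc1a3*, part of both sums, were also genes of the MG gate, which in part fixed these sums. Microglial markers (*P2ry12*, *Tmem119*, *Cx3cr1*, *Csf1r*, *Aif1* and *Sall1*) summed to 1873 to 2743 CPM in myeloid cells and to 11.3 to 21.9 CPM in MG. Macrophage and monocyte markers were also high in the myeloid cells, at 18849 to 34399 CPM, so the class was called myeloid and not microglia. The captures differed in depth, with 13132765 to 50938304 UMIs per capture and a median of 2900 to 10772 UMIs per MG, and *Yap5SA* AAV replicate 3 stood apart by pigment epithelium transcripts in its MG (4230 CPM against 16.8 to 539 in the others) and rod transcripts (1377 CPM against 7.01 to 663).

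Complement is a cascade of secreted proteins that tags cells, synapses and debris for removal. The classical pathway starts with C1q, a complex of the A, B and C chains, and proceeds through C4 to C3, the hub of all pathways. Factor B forms the convertase of the alternative pathway, factor I cleaves the activated fragments, the C1 inhibitor encoded by *Serping1* blocks the C1 proteases, and C3ar1 is the receptor for the C3a fragment. In the central nervous system microglia are known as the main source of C1q, and reactive glia as a source of C3 and C4.

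The members came from 5 chromosomes in the GENCODE annotation of GRCm39. The C1q genes lie in one cluster on chromosome 4, where *C1qb* (136606009-136613511), *C1qc* (136616466-136620376) and *C1qa* (136623223-136626161) occupy 20.2 kb on the minus strand. On chromosome 17, *C4b* (34947354-34962912), its paralog *C4a* and *Cfb* (35074852-35081559) occupy 134 kb of the minus strand, and *C3* lies at 57510964-57535155. *Cfi* lies on chromosome 3 (129629533-129668981), *Serping1* on chromosome 2 (84595705-84620873) and *C3ar1* on chromosome 6 (122823393-122833122). Counts of *C4b* are uncertain with respect to *C4a*, since 20.2% of the 90-base windows in the last 500 bases of the *C4b* transcript also occur in *C4a*.

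RefSeq promoter sequences (build GRCm38.p6, the 250 bases before the gene start, minus strand, 5′ to 3′) matched 4 of the 9 members, and are shown for the C1q chains that were detected together and for the C3 ligand and receptor pair. *C1qb* (chr4:136886201-136886450) and *C1qc* (chr4:136892915-136893164) each held 1 match to GAGGAA, the core bound by ETS factors such as PU.1, on either strand, in capitals here. This motif occurred in 23.3% of the 32851 promoters of the same length.
C1qb promoter: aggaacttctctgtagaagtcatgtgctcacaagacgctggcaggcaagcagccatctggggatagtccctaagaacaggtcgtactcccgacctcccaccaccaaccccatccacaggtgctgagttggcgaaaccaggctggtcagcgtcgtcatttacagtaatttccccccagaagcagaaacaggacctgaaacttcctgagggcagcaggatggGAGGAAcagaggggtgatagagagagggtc
C1qc promoter: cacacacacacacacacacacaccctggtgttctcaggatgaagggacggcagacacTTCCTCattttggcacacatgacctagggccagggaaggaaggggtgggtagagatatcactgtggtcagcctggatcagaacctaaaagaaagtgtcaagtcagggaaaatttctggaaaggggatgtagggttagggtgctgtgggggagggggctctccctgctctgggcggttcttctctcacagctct

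The *C3* promoter (chr17:57228137-57228386) held 1 match to the C/EBP-type motif TTGCNNAA, found in 9.56% of promoters, and the *C3ar1* promoter (chr6:122856158-122856407) held 1 match to the NF-kappaB-type motif (GGG and TTTCC, 2 bases apart), found in 1.41%. Neither the interferon-stimulated response element (TTTC and TTTC, 2 bases apart, 2.98% of promoters) nor the gamma-activated site TTCNNNGAA (7.02%) was in these windows of the 4 genes. Both strands were searched, and the capitals mark the match of either strand.
C3 promoter: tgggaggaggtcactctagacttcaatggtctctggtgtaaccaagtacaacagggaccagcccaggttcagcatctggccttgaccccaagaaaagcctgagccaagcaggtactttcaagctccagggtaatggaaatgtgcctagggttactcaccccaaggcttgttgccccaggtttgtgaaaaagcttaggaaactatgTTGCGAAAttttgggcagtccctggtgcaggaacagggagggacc
C3ar1 promoter: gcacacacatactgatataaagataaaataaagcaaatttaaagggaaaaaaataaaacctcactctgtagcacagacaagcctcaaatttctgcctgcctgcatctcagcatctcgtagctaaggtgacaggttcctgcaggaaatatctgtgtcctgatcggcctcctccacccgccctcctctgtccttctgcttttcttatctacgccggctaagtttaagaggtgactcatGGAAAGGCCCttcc

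First, the level of each member was compared between MG and myeloid cells of the same captures. The C1q chains and the C3a receptor were myeloid transcripts, *Serping1* was a glial transcript, and *C3* and *C4b* were found in both classes. Of the 8 members that could be tested, 1 was higher in MG and 5 were higher in myeloid cells (edgeR's quasi-likelihood test on summed UMIs with the library as a block, Benjamini-Hochberg adjusted p at most 0.05), against 28.2% of all 14339 genes tested that were higher in MG and 20.7% that were higher in myeloid cells. The median log2 fold change, MG over myeloid cells, was -6.33 over the tested members and 0.26 over all genes tested. *Cfi* was too low to be tested. In the fits of 1 class alone, *C3ar1* was too low in MG and *Serping1* too low in myeloid cells. Each thus passed the filter on low counts through the class where it was high. The same filter held for all genes tested. With no filter, 2 of 9 members were higher in MG and 5 in myeloid cells. The sums of the classes did not overlap for 5 of the 8 members, against 53.7% of all genes tested.

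**Figure D1:**
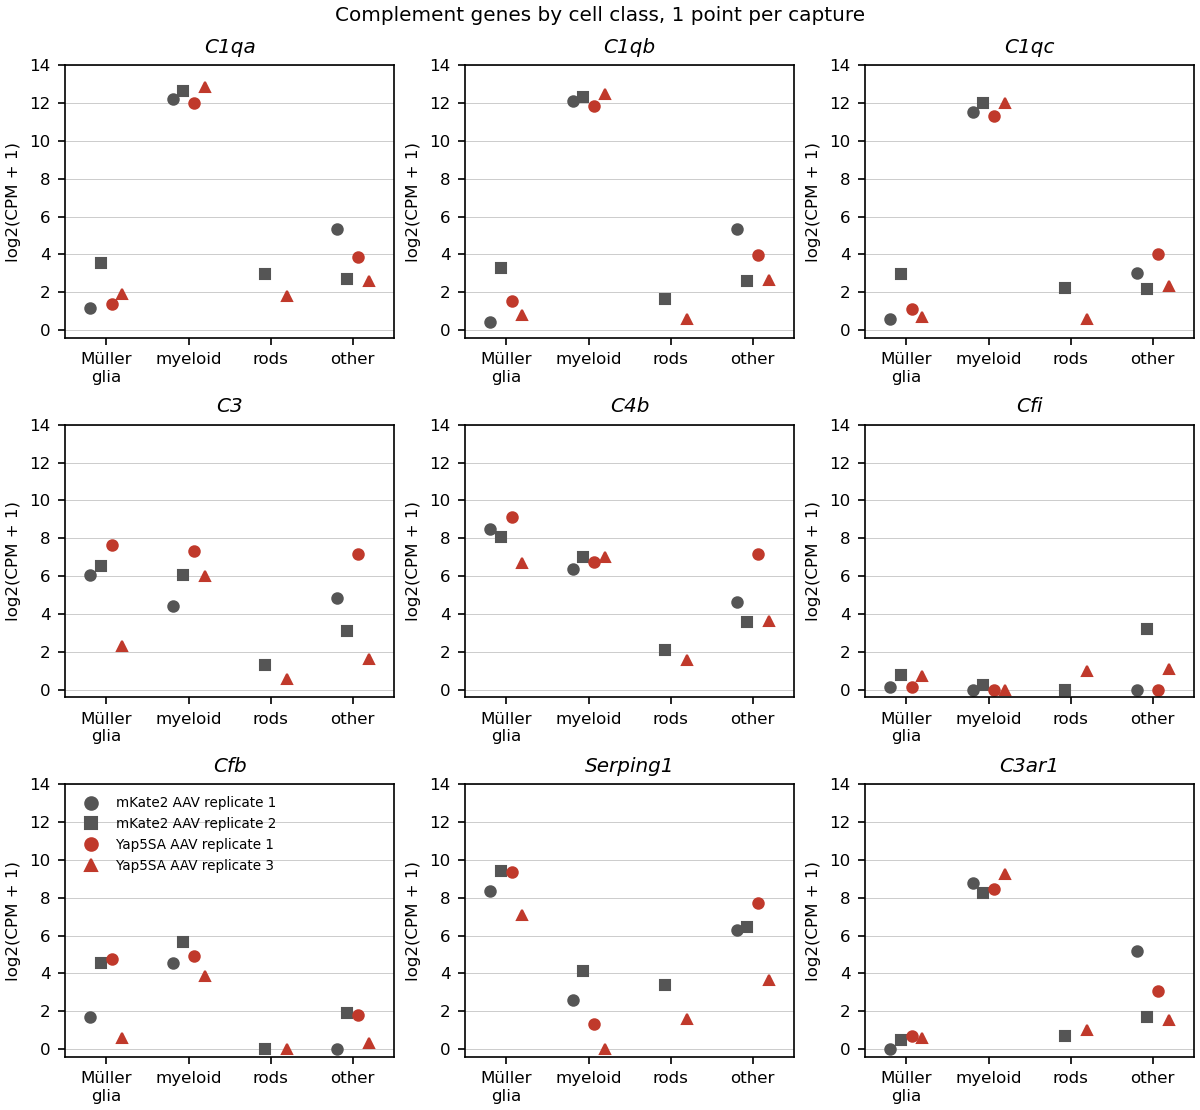
Level of each member, as log2(CPM + 1) of the summed UMIs, by cell class, with 1 point per capture (gray, *mKate2* AAV; red, *Yap5SA* AAV). The C1q chains and *C3ar1* sit highest in myeloid cells in every capture, *Serping1* sits higher in MG than in myeloid cells in every capture, and *C3*, *C4b* and *Cfb* overlap between the 2 classes. Rods are drawn for the 2 captures with at least 10 rods.

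*C1qa*, the A chain of C1q, reached 4760, 6348, 4161 and 7492 CPM in the myeloid cells of the 2 *mKate2* AAV captures (replicates 1 and 2) and the 2 *Yap5SA* AAV captures (replicates 1 and 3), an order kept for all lists of 4 values. *C1qb*, the B chain, gave 4372, 5090, 3740 and 5693 CPM in these captures. *C1qc*, the C chain, gave 2929, 4178, 2584 and 4120 CPM. The captures with each AAV overlapped for all 3 chains, and *Yap5SA* AAV replicate 1 was the lowest and replicate 3 or *mKate2* AAV replicate 2 the highest for each. Since UMIs count transcripts tagged near their 3′ end, levels can be compared between genes without division by length, and the chains took nearly constant shares of the C1q UMIs of myeloid cells. *C1qa* contributed 39.5% to 43.3%, *C1qb* 32.6% to 36.3% and *C1qc* 23.8% to 26.8% over the 4 captures.

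In MG the C1q chains were near 0. *C1qa* stood at 1.27, 10.7, 1.57 and 2.81 CPM, and *C1qb* and *C1qc* at 0.339 to 8.64 and 0.508 to 6.89 CPM. Rods, which should lack C1q, held 6.97 CPM of *C1qa*, 2.12 CPM of *C1qb* and 3.63 CPM of *C1qc* in *mKate2* AAV replicate 2, where MG held 10.7, 8.64 and 6.89 CPM. In *Yap5SA* AAV replicate 3 they held 2.52, 0.504 and 0.504 CPM, from 7 UMIs in all, where MG held 2.81, 0.766 and 0.638 CPM. MG were above rods for each chain in both captures. Other cells held 86.8, 14.0, 44.0 and 14.5 CPM of the 3 chains together, against 2.12, 26.2, 4.60 and 4.21 CPM in MG. They were thus above MG except in *mKate2* AAV replicate 2. The part of free RNA in these values was not tested. When each cell was thinned to 1000 UMIs, all 3 chains were detected together in 73.1%, 87.6%, 74.8% and 88.7% of myeloid cells. In MG, 0 of 1496, 2861, 801 and 1341 cells held all 3 chains, and these counts of 0 leave room for shares of 0.201%, 0.105%, 0.375% and 0.224% by counting error alone. Cells that passed the myeloid gate as well, 2, 37, 2 and 0 per capture, had been left out of MG. The counts of 0 therefore do not cover cells with many myeloid transcripts. In the fit, MG were lower than myeloid cells by a log2 fold change of -11.31 for *C1qa* (SE 0.54, edgeR quasi-likelihood test, Benjamini-Hochberg adjusted p = 4.43e-08), and by -11.80 for *C1qb* (SE 0.75) and -11.57 for *C1qc* (SE 0.64). These sizes rest on few UMIs in MG, and became -9.16, -9.26 and -9.28 when cells of both gates were kept and -12.01, -12.75 and -12.47 without *mKate2* AAV replicate 2.

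*C3ar1*, the receptor for C3a, followed the same distribution. It reached 432, 299, 349 and 618 CPM in myeloid cells and was found in MG at no more than 0.628 CPM, with 17 UMIs over all 4 captures. Among thinned myeloid cells 38.5%, 17.8%, 28.7% and 27.4% held a UMI, against 0% to 0.0746% of MG and 0% of rods. The log2 fold change of MG over myeloid cells was -10.49 (SE 0.57, edgeR quasi-likelihood test, Benjamini-Hochberg adjusted p = 5.74e-08), and -8.40 with cells of both gates kept. Other cells held 35.2, 2.22, 7.34 and 1.87 CPM, below the myeloid level in each capture and above that of MG.

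*Serping1*, the C1 inhibitor, was the member with the opposite distribution. In MG it reached 328, 679, 648 and 136 CPM, a mean of 448 ± 261 (SD, n = 4), and in myeloid cells 5.03, 16.8, 1.49 and 0 CPM. The myeloid value of 0 in *Yap5SA* AAV replicate 3 allows up to 5.83 CPM. MG exceeded myeloid cells in every capture, by a log2 fold change of 6.11 (SE 0.57, edgeR quasi-likelihood test, Benjamini-Hochberg adjusted p = 3.64e-06). It was 3.97 with cells of both gates kept, 7.56 without *mKate2* AAV replicate 2 and 5.31 without *Yap5SA* AAV replicate 1. Thinned MG held a UMI in 18.6%, 39.6%, 34.2% and 9.62% of cells, against 1.42% and 0.266% of rods in the captures that held them, *mKate2* AAV replicate 2 and *Yap5SA* AAV replicate 3. Other cells were intermediate at 77.5, 86.8, 209 and 11.7 CPM, below MG of the same capture in all 4.

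*C4b*, the C4 gene that feeds the classical and lectin pathways, was detected in MG at 365, 268, 563 and 104 CPM and in myeloid cells at 83.0, 126, 106 and 130 CPM. MG were higher in 3 captures and lower in *Yap5SA* AAV replicate 3, and the log2 fold change of 0.94 (SE 0.43) did not pass the threshold (edgeR quasi-likelihood test, Benjamini-Hochberg adjusted p = 0.0887). Without *Yap5SA* AAV replicate 3 it was 1.50 (edgeR, adjusted p = 0.00566), and scaling by library totals in place of TMM, which moved the median of all genes by 0.42 on the log2 scale, gave 1.35 (edgeR, adjusted p = 0.0213). Rods held 3.33 and 2.01 CPM of *C4b* in the 2 captures that had them, below both classes of the same captures.

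*C3*, on which the complement pathways converge, was detected at 65.0, 92.8, 200 and 3.96 CPM in MG and at 20.1, 65.0, 161 and 64.1 CPM in myeloid cells. MG were higher in 3 captures and lower in *Yap5SA* AAV replicate 3. Although the mean over captures was 90.4 CPM in MG and 77.6 CPM in myeloid cells, the fitted log2 fold change was -0.58 (SE 0.68, edgeR quasi-likelihood test, Benjamini-Hochberg adjusted p = 0.509), and it turned to 0.34 without *Yap5SA* AAV replicate 3. Rods held 1.51 and 0.504 CPM.

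*Cfb*, factor B, gave 2.29, 22.6, 26.4 and 0.511 CPM in MG and 22.6, 49.8, 29.3 and 13.6 CPM in myeloid cells. The class sums overlapped, although each capture had the higher value in its myeloid cells. MG were lower by a log2 fold change of -2.17 (SE 0.59, edgeR quasi-likelihood test, Benjamini-Hochberg adjusted p = 0.00868). This call was lost without the library block (-2.97, edgeR, adjusted p = 0.146) and without *mKate2* AAV replicate 1 (-1.69, edgeR, adjusted p = 0.0549). Rods held no UMI of *Cfb*.

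*Cfi*, factor I, was near 0 in both classes, with 20 UMIs in MG and 1 in myeloid cells over the 4 captures. Its level in MG was 0.0846, 0.711, 0.105 and 0.638 CPM.

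**Figure D2:**
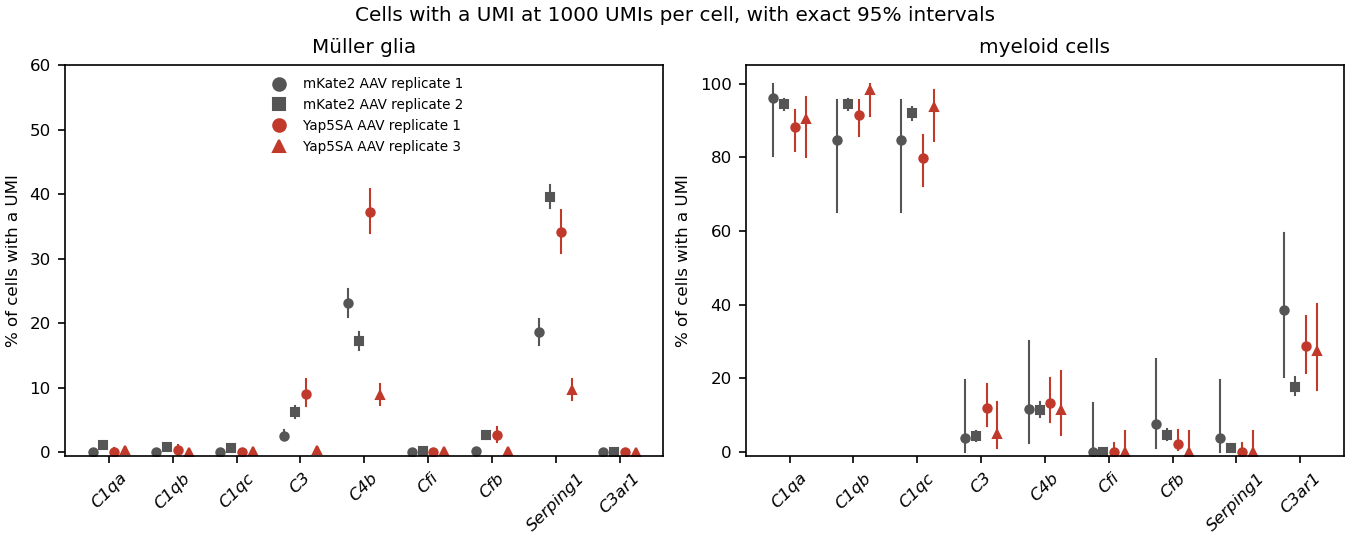
Share of MG (left) and myeloid cells (right) with a UMI of each member after every cell was thinned to 1000 UMIs, with exact 95% binomial intervals, which cover counting error only, and 1 point per capture. In MG, *C4b* and *Serping1* reach 8.87% to 37.3% and 9.62% to 39.6% of cells, *C3* reaches 9.11% at most, and C1q stays at or under 1.12%. In myeloid cells, 79.7% to 98.4% hold a UMI of each C1q chain.

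Among MG, the members were detected in different shares of cells. After thinning, 23.1%, 17.2%, 37.3% and 8.87% of MG held a *C4b* UMI, while *C3* was found in 2.61%, 6.19%, 9.11% and 0.373%. Unthinned, the means over captures were 47.9% for *C4b* and 11.9% for *C3*. Depth differed between captures, and the MG of at least 5000 UMIs held 70.6, 89.5, 204 and 1.68 CPM of *C3*, and *Yap5SA* AAV replicate 3 was again the lowest.

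Other complement genes were counted from a list of 42, of which 23 could be tested between the classes. Of these, 6 were higher in MG and 10 were higher in myeloid cells, beside 28.2% and 20.7% of all genes tested, with a median log2 fold change of -0.85 against 0.26 over all genes tested. *Cd59a* (log2 fold change 3.84) and *Cd59b* (3.42), which block the membrane attack complex, *Cd46* (2.21), a cofactor for factor I, and *Susd4* (2.13), a complement inhibitor, were higher in MG. The C3 fragment receptor subunits *Itgam* (-10.54), *Itgb2* (-10.06) and *Itgax* (-9.79) and the C5a receptor *C5ar1* (-10.18) were higher in myeloid cells.

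Next, the AAVs were compared within MG, the cells that the vectors target. None of the 7 members tested differed between *Yap5SA* and *mKate2* AAV (edgeR's quasi-likelihood test, Benjamini-Hochberg adjusted p at most 0.05), and 0.0% of the 15210 genes tested did. At an unadjusted p under 0.05 the counts were 0 members and 30 genes, and DESeq2 called 0 members and 0 genes. The sums of the AAVs did not overlap for 0 of these 7 members, against 15.4% of all genes tested. *C3ar1*, too low to be tested, had 0 and 7 UMIs with the *mKate2* AAV and 6 and 4 with the *Yap5SA* AAV, and its CPM did not overlap. For *C3*, *C4b*, *Cfb* and *Serping1*, the 2 *Yap5SA* AAV captures differed more from each other than the means of the AAVs did. *C3* was the lowest and the highest in the 2 *Yap5SA* AAV captures, at 200 CPM in replicate 1 and 3.96 CPM in replicate 3, with the *mKate2* AAV captures at 65.0 and 92.8 CPM between them. The log2 fold change of *C3*, *Yap5SA* over *mKate2* AAV, was 0.23 with an SE of 1.48 (edgeR quasi-likelihood test, Benjamini-Hochberg adjusted p = 1.00).

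For the other glial members the log2 fold change was -0.02 (SE 0.77) for *C4b*, -0.10 (SE 1.74) for *Cfb* and -0.52 (SE 0.83) for *Serping1*. These standard errors leave room for changes of a log2 unit or more in either direction. The share of thinned MG with a *Serping1* UMI was 29.1% ± 14.8 (SD, n = 2) with the *mKate2* AAV and 21.9% ± 17.4 (SD, n = 2) with the *Yap5SA* AAV (two-sided exact permutation test, p = 0.667), in a design that cannot go below 0.333.

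The file headers name a processing version, Cell Ranger 8.0.0 for replicate 1 of each AAV and 9.0.1 for *mKate2* AAV replicate 2 and *Yap5SA* AAV replicate 3, so that the AAVs could be compared within each version. Within 8.0.0 the difference in log2 CPM of MG, *Yap5SA* minus *mKate2* AAV, was 1.60 for *C3*, 0.61 for *C4b*, 3.41 for *Cfb* and 0.96 for *Serping1*. Within 9.0.1 it was -4.67, -1.53, -5.23 and -2.49 for the same genes. The signs were opposite for all 4 genes, each version holding 1 capture per AAV and no replicate.

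Genes of gliosis, the reaction of glia to injury, also differed between captures. *Gfap*, the intermediate filament of reactive glia, stood at 24.2, 287, 125 and 6.38 CPM in MG, *Lcn2*, a secreted lipocalin, at 1221, 1261, 565 and 29.7 CPM, and *Serpina3n*, a serine protease inhibitor, at 216, 472, 202 and 14.0 CPM. *Yap5SA* AAV replicate 3 was the lowest capture for these 3 genes and for *C3*, *C4b*, *Cfb* and *Serping1*. The MG of that capture also held the most pigment epithelium and rod transcripts, as given above, and their part in its low values was not tested.

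**Figure D3:**
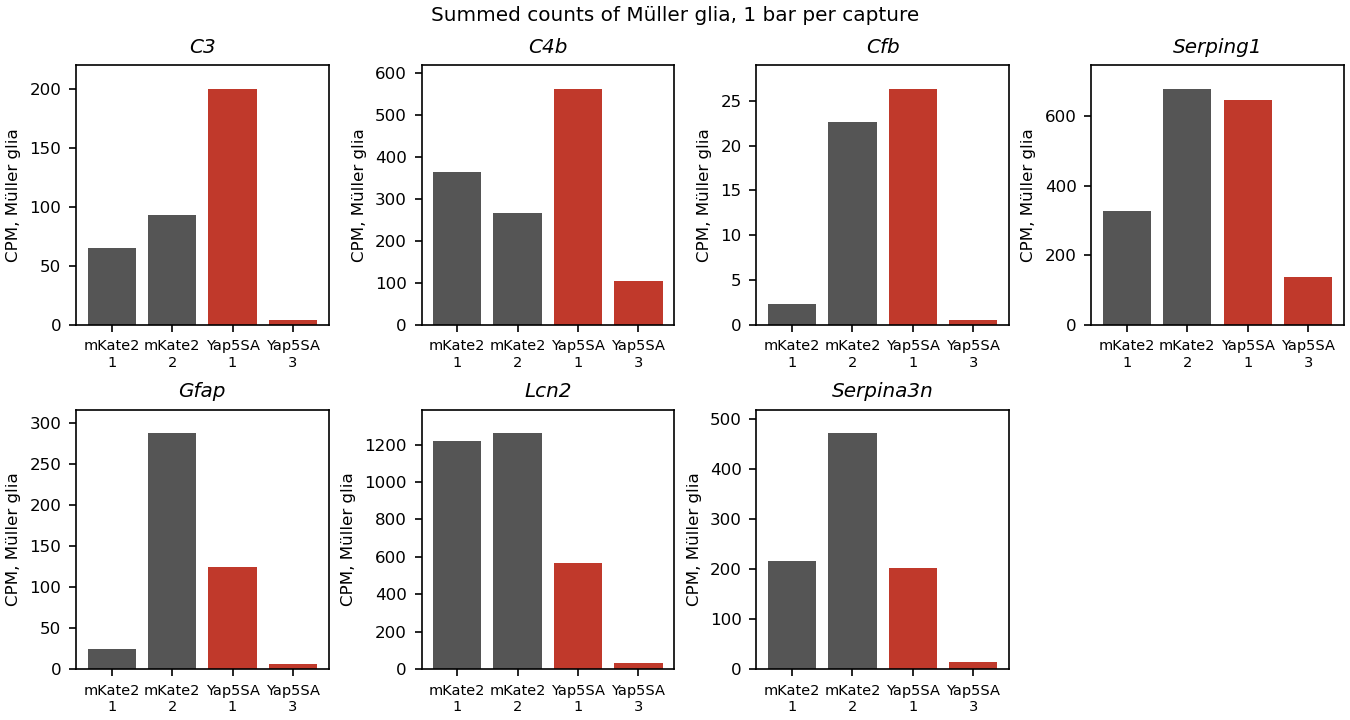
CPM in the summed MG of each capture (gray, *mKate2* AAV replicates 1 and 2; red, *Yap5SA* AAV replicates 1 and 3) for 4 members and 3 gliosis genes. *Yap5SA* AAV replicate 3 is the lowest bar in every panel, with 3.96 CPM of *C3* against 200 CPM in *Yap5SA* AAV replicate 1.

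In myeloid cells, 0 of the 7 members tested differed between the AAVs, nor did any of the 8786 genes tested (0.0%, edgeR's quasi-likelihood test and Benjamini-Hochberg correction). At an unadjusted p under 0.05 the counts were 0 members and 148 genes, and DESeq2 called 0 members and 3 genes. The sums of the AAVs did not overlap for 0 of the 7 members, against 27.4% of all genes tested. *Serping1*, too low to be tested, had 3 UMIs with the *Yap5SA* AAV and 96 with the *mKate2* AAV. Its CPM, at means of 0.744 and 10.9, did not overlap. Fitted values of *Yap5SA* against *mKate2* AAV (log2) for the C1q chains were 0.04 for *C1qa* (SE 0.40), -0.04 for *C1qb* (SE 0.35) and -0.12 for *C1qc* (SE 0.39). *C3* had the largest value among the members at 1.21 (SE 0.63, edgeR, adjusted p = 1.00). Within Cell Ranger 8.0.0 its difference in log2 CPM was 2.88, from 20.1 to 161 CPM, where the *mKate2* AAV capture held 26 myeloid cells and 8 *C3* UMIs, and within 9.0.1 it was -0.04. *C3ar1* gave 0.39 (SE 0.45), *C4b* 0.09 (SE 0.43) and *Cfb* -0.86 (SE 0.57).

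Whether the AAV difference itself varied between MG and myeloid cells was tested by an interaction term. None of the 8 members tested passed, against 0.031% of the 16114 genes tested (edgeR's quasi-likelihood test and Benjamini-Hochberg correction), and DESeq2 called 0 members. *C3* and *Serping1* had an unadjusted p under 0.05. For *C3* the log2 difference, MG minus myeloid cells, was -2.59 (SE 0.77, edgeR adjusted p = 0.547). It was -3.24 without *mKate2* AAV replicate 2, which leaves 1 capture with that AAV, and ranged from -5.02 to -0.62 over all settings. For *Serping1* the log2 difference was 3.45 (SE 1.03, edgeR adjusted p = 0.547), from 3 myeloid UMIs with the *Yap5SA* AAV and 96 with the *mKate2* AAV. It was 3.54 without *mKate2* AAV replicate 1, which also leaves 1 capture with that AAV, and ranged from 2.65 to 7.69 over all settings.

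Variation among the MG of 1 capture was then examined. MG with a UMI of *Gfap*, *Lcn2* or *Serpina3n* after thinning to 1000 UMIs were compared with MG without one in the same captures. Such a UMI was present in 15.8%, 40.3%, 28.2% and 3.28% of the MG of the 4 captures. The 4 members that could be tested, *C3*, *C4b*, *Cfb* and *Serping1*, were all higher in MG with a gliosis UMI, as were 0.892% of the 8741 genes tested (edgeR's quasi-likelihood test with the library as a block, Benjamini-Hochberg adjusted p at most 0.05). The median log2 fold change was 1.48 over these 4 members and -0.02 over all genes tested. C1q, *Cfi* and *C3ar1* were too low in MG to be tested.

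*C3* had the largest difference. MG with a gliosis UMI held 215, 191, 478 and 159 CPM of *C3* in the 4 captures, and MG without one held 6.35, 33.4, 71.3 and 0.771 CPM. The lowest value with a gliosis UMI exceeded the highest without one, as for 2.3% of all genes tested whose sums did not overlap in either direction. The log2 fold change was 3.34 (SE 0.23, edgeR quasi-likelihood test, Benjamini-Hochberg adjusted p = 4.82e-43). The fits of the gliosis splits pooled their spread almost wholly over all genes. Their p-values therefore do not measure the spread of 1 gene between the 4 captures. *C3* was detected in 13.5%, 11.4%, 19.0% and 9.09% of MG with a gliosis UMI. In *Yap5SA* AAV replicate 3 these values rest on 44 cells and 7 *C3* UMIs.

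*Serping1* was higher in MG with a gliosis UMI in every capture, at 612, 1037, 774 and 455 CPM against 178, 537, 421 and 113 CPM. The groups overlapped between captures but not within them, and the log2 fold change was 1.36 (SE 0.19, edgeR quasi-likelihood test, Benjamini-Hochberg adjusted p = 3.11e-10). *Cfb* gave 8.44, 47.7, 57.5 and 22.7 CPM with a gliosis UMI and 0.794, 21.1, 19.1 and 0.771 CPM without, from 71 and 49 UMIs in all. Its log2 fold change was 1.60 (SE 0.37, edgeR, adjusted p = 0.00346), and the call was lost without *Yap5SA* AAV replicate 1 (edgeR, adjusted p = 0.184) and when 2 UMIs defined the split (edgeR, adjusted p = 0.137). Without *mKate2* AAV replicate 2, which held 55 and 36 of its UMIs, *Cfb* was too low to be tested.

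*C4b* differed least among these genes. It stood at 603, 251, 655 and 295 CPM in MG with a gliosis UMI and at 276, 190, 532 and 94.8 CPM in MG without, higher in each of the 4 captures. The log2 fold change was 0.78 (SE 0.19, edgeR quasi-likelihood test, Benjamini-Hochberg adjusted p = 0.00534), and the call was lost without *mKate2* AAV replicate 1 (edgeR, adjusted p = 0.421), without *Yap5SA* AAV replicate 3 (edgeR, adjusted p = 0.0597) and without the filter on low counts (edgeR, adjusted p = 0.121). Among the other complement genes, 1 of 7 tested was called, *C1ra*, a C1 protease (log2 fold change 1.43, edgeR adjusted p = 0.0453).

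**Figure D4:**
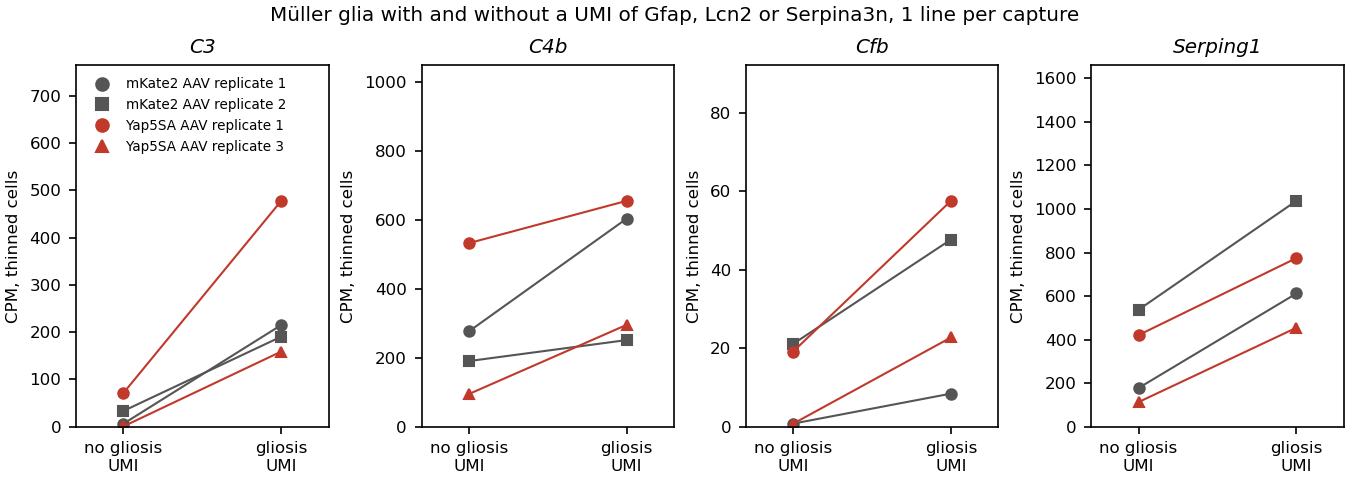
CPM in MG without and with a UMI of *Gfap*, *Lcn2* or *Serpina3n*, all cells thinned to 1000 UMIs, with 1 line per capture. All 4 lines rise in all 4 panels, from 0.771 to 71.3 CPM without to 159 to 478 CPM with a gliosis UMI for *C3*.

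The gliosis genes were not equal in this respect. In splits on 1 gene, chosen after the data were seen, *C3* differed by a log2 fold change of 3.97 between MG with and without *Lcn2* (SE 0.26, edgeR quasi-likelihood test, Benjamini-Hochberg adjusted p = 2.26e-48), by 2.39 for *Serpina3n* (SE 0.25, edgeR, adjusted p = 8.55e-19) and by 1.01 for *Gfap* (SE 0.30, edgeR, adjusted p = 0.171). All 4 members were called higher with *Lcn2*, as were 0.746% of all genes tested, and 3 with *Serpina3n*, as were 0.507%. With *Gfap* 0 members were called, as were 0.0136% of all genes tested, a single gene. *Gfap* split off 2.61%, 19.5%, 8.99% and 0.895% of MG and *Lcn2* 9.49%, 17.0%, 11.6% and 1.72%, so the sizes of these groups differed as well. Markers of other cells were counted beside the split on all 3 genes. Macrophage and monocyte markers summed to 8.44, 171, 146 and 0 CPM in MG with a gliosis UMI and to 4.77, 59.2, 87.0 and 10.0 CPM in MG without. Pigment epithelium markers summed to 12.7, 957, 314 and 8432 CPM with and 20.7, 292, 330 and 2880 CPM without, and before thinning the MG with a gliosis UMI were deeper, by medians of 6884, 2908, 12169 and 3168 UMIs against 6069, 2897, 10030 and 2907. The part of these in the result was not tested.

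MG were also split by a UMI of 10 interferon-stimulated genes, since several complement genes are known to respond to interferons. Such a UMI was present in 31.2%, 46.8%, 45.1% and 27.4% of MG. None of the 4 members tested passed, against 1.18% of the 8026 genes tested (edgeR's quasi-likelihood test and Benjamini-Hochberg correction). *Serping1* had the smallest p, with a log2 fold change of 0.20 (SE 0.09, unadjusted p = 0.0264, adjusted p = 0.352 by edgeR) and the higher level in MG with an interferon UMI in all 4 captures. *C3* (-0.04, SE 0.16), *C4b* (-0.07, SE 0.10) and *Cfb* (0.04, SE 0.31) were near 0.

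Myeloid cells were split at 5 UMIs of the MHC class II genes *Cd74*, *H2-Aa*, *H2-Ab1* and *H2-Eb1*, which are high in macrophages and activated microglia. Cells above this limit made up 53.8%, 58.3%, 83.2% and 48.4% of the myeloid cells. The 4 members that could be tested did not pass, against 0.522% of the 383 genes tested (edgeR's quasi-likelihood test and Benjamini-Hochberg correction, 0 members at an unadjusted p under 0.05). The log2 fold change, high over low MHC class II, was -0.08 (SE 0.18) for *C1qa*, -0.03 (SE 0.15) for *C1qb*, -0.17 (SE 0.14) for *C1qc* and -0.14 (SE 0.47) for *C3ar1*. *C1qa* stood at 7220 and 6636 CPM on the high and low sides in *mKate2* AAV replicate 2, the capture with the most myeloid cells, and was lower on the high side in the other 3 captures. *C3ar1* went in both directions, from 786 against 167 CPM in *mKate2* AAV replicate 1 (11 and 2 UMIs) to 233 against 563 CPM in *Yap5SA* AAV replicate 3 (7 and 18 UMIs).

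Genes whose levels ran most like each member were found over the 14 sums of captures and cell classes by Pearson's r of log2(CPM + 10), a description over points that share libraries. *C1qa* ran with *C1qb* (r = 0.999), *Clec5a* and *Ms4a7*, *C1qc* with *Ccl6* (r = 0.997), *Lyz2* and *Lrrc25*, and *C3ar1* with *C5ar1* (r = 0.996), *Ly86* and *Ncf1*. *Serping1* ran with *Chil1* (r = 0.977), *Folr1* and *Igsf10*, and *C4b* with *Tmco1* (r = 0.967), *Cd9* and *Cebpg*. *C3* ran with *Usp18* (r = 0.899), *Parp9* and *Tmem140*, and *Cfb* with *Il18bp* (r = 0.925), *Trim30d* and *Slc2a9*, so the likeness was weaker for these 2 members than for the others named. *C1qb* ran with *C1qa*, *Ms4a7* and *Fcer1g*, the last a gene of the myeloid gate, and *Cfi* did not reach 10 CPM in any sum.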

How the data were processed

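Retinal cells were sorted for tdTomato and sequenced with the 10x Chromium 3′ v3.1 chemistry. The authors deposited UMI counts per gene and cell, made with Cell Ranger against GRCm39. The labels name version 8.0.0 and the file headers 8.0.0 or 9.0.1. Gene rows were taken by symbol. Cells were classed by the gates given above, cells of both gates (0 to 37 per capture) were left out, and doublets and the cells that the study set aside as stressed were not removed otherwise. CPM are UMIs per 1000000 UMIs of a class. UMIs were summed per capture and class, over 4 captures (2 per AAV), and fitted with edgeR 4.0.16 in R 4.3.3 (filterByExpr, TMM, quasi-likelihood test, Benjamini-Hochberg over all genes tested, threshold 0.05). Sums needed at least 10 cells. SE is the log2 fold change divided by the root of F. The interaction, gliosis and interferon fits pooled their spread almost wholly over all genes. Their p-values do not measure the spread of 1 gene between captures. Shares used cells thinned to 1000 UMIs. AAV shares were compared by exact permutation tests. Figures and sums used Python 3.11.15, numpy 2.4.6, pandas 2.3.3, scipy 1.17.1 and matplotlib 3.10.9. Some of the tests were also run on simulated counts made without a capture effect, which do not cover the spread between these captures. Alternatives were RLE factors, library totals, no filter, DESeq2 1.42.0, no library block, cells of 2000 UMIs, cells of both gates kept, a version term, *Yap5SA* AAV replicate 2 in place of replicate 1, other limits of the splits, and each capture left out. Named genes were the 9 members, the 4 other complement genes with the largest called change each way and no overlap, and the 3 genes most like each member. Members and lists were chosen with earlier results of these data known. Intervals cover counting error only. Depth is given in the report.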

Additional observations from a re-analysis of the deposited data

Results flagged for a closer look

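*Cfi* UMIs were noticed outside the comparisons, in cells of neither gate, at levels above the limit that a count of 0 allows. The level there was 8.07 CPM in *mKate2* AAV replicate 2 and 1.17 CPM in *Yap5SA* AAV replicate 3. In *mKate2* AAV replicate 2, 25 of 1457 such cells held 151 of the 160 UMIs, and they carried 7360 CPM of *Prkca* and 5159 CPM of *Trpm1*, genes known from rod bipolar cells, against 501 and 466 CPM in the rest. Their *Serpina3n* and *Lcn2* stood at 652 and 696 CPM against 30.5 and 37.7 CPM, and their median depth was 26175 UMIs against 10034. In *Yap5SA* AAV replicate 3 the value rests on 5 UMIs in 3 cells. These cells and genes were chosen after their values were seen, and no test was run.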

How the results depend on the processing

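The 10 member results that passed a test kept their direction under all 119 recomputations with an alternative, and 107 of these stayed past the threshold. The *C1qa*, *C1qb*, *C1qc*, *C3ar1* and *Serping1* differences between MG and myeloid cells passed in each, with log2 fold changes of -12.01 to -9.16, -12.75 to -9.26, -12.47 to -9.28, -10.91 to -8.40 and 3.97 to 7.56. Of 319 recomputations for members that had not passed, 44 changed direction, most of them when 1 capture was left out, which leaves an AAV with 1 capture that is assumed to vary like the others. No paired analysis was possible because, by replicate number, the kept captures share number 1 only. Instead, a term for the Cell Ranger version, which holds 1 capture per AAV in each version, was fitted as an alternative. Depth and the small myeloid sums (26 cells in *mKate2* AAV replicate 1) limit what an AAV difference could show. The splits on 1 gliosis gene were added after the data were seen, and the causes of the changes below were not tested.

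Between MG and myeloid cells, 2 members in place of 1 were higher in MG with library totals, with no filter and without *Yap5SA* AAV replicate 3 (range 1 to 2 when a capture was left out), the added gene being *C4b*, and *C3* ranged from -1.13 to 0.34. For the AAV difference in MG, library totals gave 0.0789 for *C4b* and 0.11 for *Cfb*, and a Cell Ranger version term gave -1.33 for *C3*. Leaving out a capture gave -4.41 to 1.20 for *C3*, -1.66 to 0.73 for *C4b*, -4.74 to 2.54 for *Cfb*, -1.999 to 0.26 for *Serping1*, -2.48 to 0.80 for *C1qa*, -2.89 to 1.94 for *C1qb* and -3.12 to 0.82 for *C1qc*.

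For the AAV difference in myeloid cells, *C1qa* was -0.0473 with no filter and -0.0232 with a version term, and *C1qb* was 0.0766 with cells of both gates kept. Genes called higher and lower with the *Yap5SA* AAV were 13 and 34 with no filter, 1 and 2 by DESeq2, 2 and 4 with a version term, and 1 to 12 and 0 to 26 with a capture left out. The same omissions gave -0.58 to 0.45 for *C1qa*, -0.50 to 0.29 for *C1qb*, -0.63 to 0.24 for *C1qc*, -0.21 to 0.54 for *C4b*, -1.50 to 0.00502 for *Cfb* and -0.20 to 0.80 for *C3ar1*.

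For the interaction, the genes called were 2 in the positive and 3 in the negative direction, with 0 positive by RLE, 5 negative with no filter, and 0 and 1 by DESeq2, which gave -0.0361 for *Cfb*. Omitting a capture gave 0 to 69 positive and 0 to 132 negative genes, 0 to 1 member each way, and -2.14 to 0.48 for *C1qa*, -2.54 to 1.81 for *C1qb*, -2.52 to 0.66 for *C1qc*, -1.93 to 0.88 for *C4b*, -2.66 to 1.96 for *Cfb* and -0.0400 to 4.54 for *C3ar1*.

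For the gliosis split, 78 genes were higher and 17 lower. These counts became 34 and 8 at 2 UMIs, 38 and 3 with *Serpina3n* alone, and 1 and 5 with *Gfap* alone, where 0 members were higher. Thinning to 2000 UMIs gave 35 lower genes, and omitting a capture gave 34 to 48 higher and 6 to 13 lower. For the interferon split (48 higher, 47 lower), 2000 UMIs gave 95 and 176 and a *C3* value of 0.47, and omissions gave 21 to 41 and 3 to 43, with -0.20 to 0.19 for *C3* and -0.13 to 0.0231 for *C4b*. For MHC class II (2 higher, 0 lower), no filter gave 29 and 8, a split at 10 UMIs gave 8 and 6, *Yap5SA* AAV replicate 2 in place of replicate 1 gave 1 higher, and omissions gave 0 to 30 and 0 to 13, with -0.25 to 0.11 for *C1qa*, -0.14 to 0.0948 for *C1qb* and -0.43 to 0.00900 for *C3ar1*.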

Other observations

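Cells outside the MG and myeloid gates also held complement transcripts, in small groups chosen after their values were seen. In *Yap5SA* AAV replicate 1, 16 of 180 such cells held 165 of 174 *C3* UMIs and 22 held 163 of 174 *C4b* UMIs. The *C3* holders carried 1138 CPM of *Col1a2*, 564 CPM of *Col1a1* and 8309 CPM of *Apod*, genes known from fibroblasts, against 37.3, 22.6 and 456 CPM in the rest. In *mKate2* AAV replicate 2, 15 of 1457 cells held 117 of 148 *C3* UMIs and carried 1895 CPM of *Spp1* against 1.08 CPM, and 1626 CPM of *Lcn2* against 29.3 CPM. In the same capture, 246 cells held 1573 of 1720 *Serping1* UMIs and carried 2643 CPM of *Igfbp2* against 151 CPM in the rest.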
